A study of Mus musculus with 6 samples.

Results

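The contractile and SRF-dependent actomyosin genes are 40 named genes of smooth muscle contraction, the actin cytoskeleton and focal adhesions. They were chosen by symbol from the 17092 genes of the count table, and each symbol matched 1 gene. Of the 40, 14 were classed from general knowledge as muscle-restricted and 26 as broadly expressed. They were measured by RNA-seq in MEFs, the fibroblasts that grow out of dissociated mouse embryos. The cells came from wild-type (WT) mice and from *Aff3ir-ORF2*-/- mice, with 3 libraries of each genotype. The *Aff3ir-ORF2*-/- line was made by injecting Cas9 mRNA and guide RNAs into fertilized eggs, so the deletion is in every cell of the animal and not in 1 cell type. The labels give no treatment, age, embryo number or culture for any library, so the p-values below measure the spread between these libraries, which may be technical. Total counts were 17435133 to 17726034 in WT and 18209421 to 18252330 in *Aff3ir-ORF2*-/- libraries. *Aff3ir* was not analysed here, so the deletion could not be read from the counts, while its parent gene *Aff3* fell and lay at -1.06 on the log2 scale (standard error 0.089, adjusted p = 1.23e-05). The *Aff3ir-ORF2*-/- libraries varied more among themselves than the WT libraries, with a common biological coefficient of variation of 0.0996 against 0.0185, and 0.0641 without replicate 2.

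Serum response factor (SRF) is a transcription factor that binds CArG boxes, short A- and T-rich DNA elements, near genes of the actin cytoskeleton. It works with 2 kinds of partner. Myocardin and the myocardin-related factors drive contractile genes, and the myocardin-related factors respond to actin dynamics. The ternary complex factors respond to growth factor signalling and drive immediate-early genes. Fibroblasts that take on a contractile, myofibroblast-like state are known for smooth muscle actin in their stress fibres, while nonmuscle myosins, filamin, talin and vinculin belong to the cytoskeleton of nearly every adherent cell.

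The muscle-restricted genes were mostly higher in *Aff3ir-ORF2*-/- MEFs. The broadly expressed genes of the same machinery mostly changed by less than 1.5-fold, in both directions, and *Srf* itself was lower. A change was called where edgeR's quasi-likelihood test, adjusted by the Benjamini-Hochberg method over all 13075 tested genes, gave an adjusted p under 0.05 together with a fold change of at least 1.5. Of the 40 genes, 39 had enough counts to be tested, with at least 18 counts in every library, and *Pdlim3* had too few. Of the 13 tested muscle-restricted genes, 8 rose (*Myh11*, *Des*, *Cnn1*, *Myocd*, *Actg2*, *Ppp1r14a*, *Acta2* and *Tagln*), with a median log2 fold change of 0.84. Of all tested genes 21.4% were called, 14.2% higher and 7.27% lower, and the median log2 fold change was 0.006. No muscle-restricted gene was called lower by edgeR, DESeq2 or limma voom, and at an unadjusted p under 0.05 edgeR had 10 of them higher and 1, *Smtn*, lower. Of the 26 broadly expressed genes, 2 rose (*Mylk* and *Myl9*) and 2 fell (*Srf* and *Fhl2*), with a median of -0.07. Past the adjusted p alone, 6 of the 26 were higher and 10 lower (61.5%, beside 56.8% of all tested genes). These counts describe genes chosen with earlier results known, and the difference between the classes was not tested.

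The adjusted p alone was passed by 27 members, beside 56.8% of all tested genes. The direction was higher in 16 and lower in 11 of them, where 29.3% and 27.5% of all tested genes passed. Many of these changes were small, and 15 of the 27 stayed under 1.5-fold. For 33 of the 39 tested members, every library of 1 genotype lay above every library of the other, 18 higher (33.3% of all tested genes) and 15 lower (32.7%), beside 66.0% of all tested genes in either direction. Just inside the fold threshold lay *Fhl2*, at -0.59 on the log2 scale, and just outside it lay *Tpm2*, at 0.57, and *Synpo2*, at 0.56. In a bulk culture, more cells of a kind and more RNA per cell cannot be told apart, and this holds for every value given here.

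**Figure D1:**
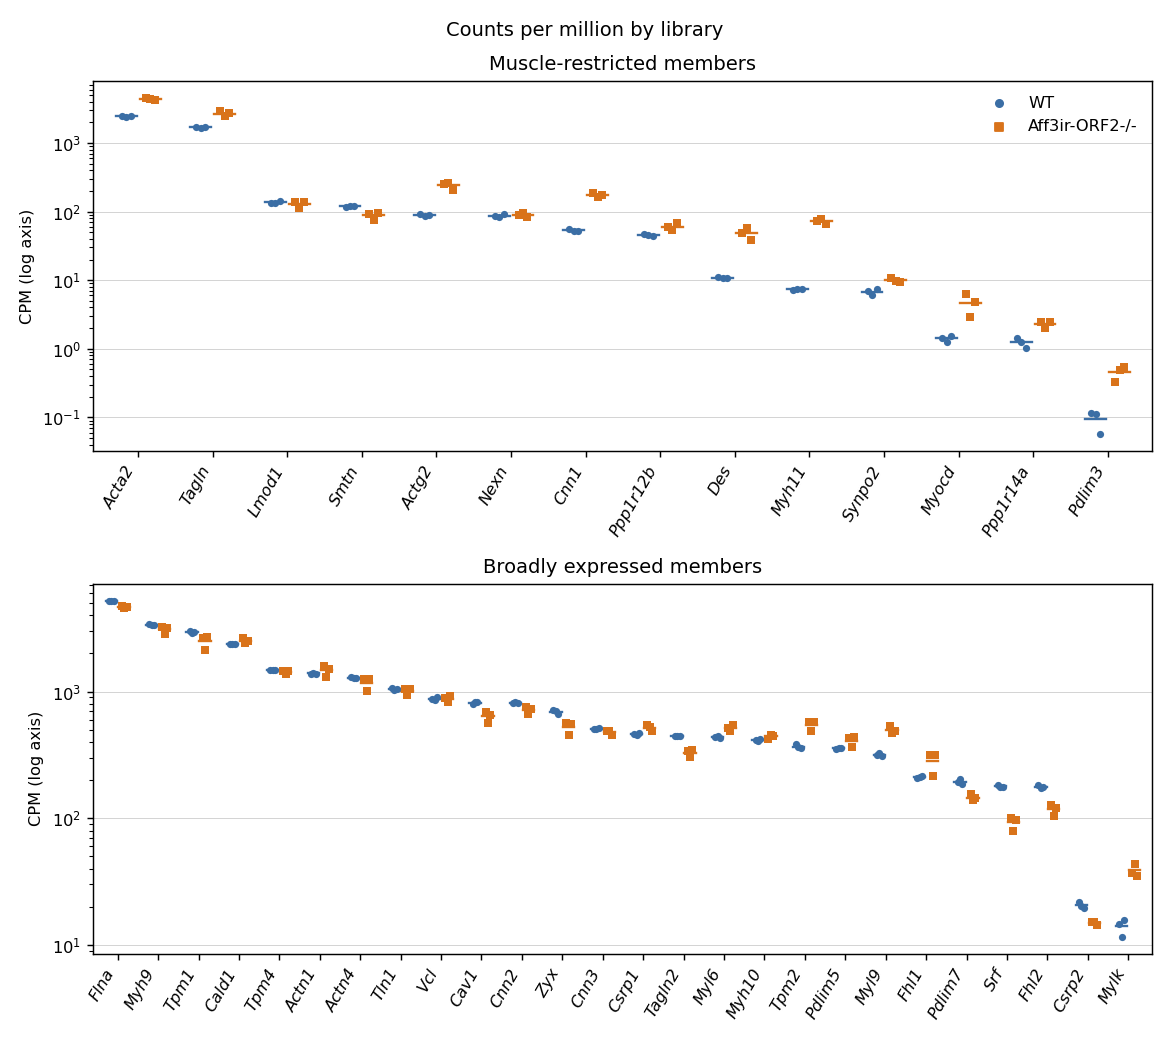
CPM (on a log axis) of the 14 muscle-restricted members (upper panel) and the 26 broadly expressed members (lower panel) in each of the 3 WT (circles) and 3 Aff3ir-ORF2-/- libraries (squares), ordered by the WT mean, which the short lines mark with that of the other genotype. The squares lie clear above the circles for Myh11, Des, Cnn1 and Actg2, and clear below them for Srf and Fhl2.

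The transcription factors of the set moved in opposite directions. *Srf* (gene ID 20807) had 3145, 3127 and 3076 counts in WT against 1846, 1483 and 1787 in *Aff3ir-ORF2*-/- MEFs. All 3 *Aff3ir-ORF2*-/- libraries were below all WT libraries, with the lowest value in replicate 2. In CPM, the counts scaled to library size, *Srf* fell from 179 ± 3.26 to 92.7 ± 11.6 (SD, n = 3 each), which was 1.93-fold lower (log2 fold change -0.95, standard error 0.0817, adjusted p = 2.60e-05 by the edgeR test). *Myocd* (gene ID 214384), which codes for myocardin, the coactivator of SRF in smooth and cardiac muscle, was near the lower end of what was counted. It had 25, 22 and 27 counts in WT against 113, 55 and 88 in *Aff3ir-ORF2*-/- MEFs. Its level rose 3.27-fold (log2 fold change 1.71, standard error 0.287, adjusted p = 8.09e-04), with the least increase in replicate 2. On a scale of CPM per kilobase of transcript, the level of *Srf* was 68.3 in WT and 35.4 in *Aff3ir-ORF2*-/- MEFs, against 0.277 and 0.909 for *Myocd*, so that the *Srf* transcript stayed far more abundant in both genotypes.

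Promoters of the members were searched for CArG boxes, in the window from 250 bases before to 50 bases after each start in the RefSeq promoter table (GRCm38.p6). A CArG box was taken as its exact form with 6 central bases of A or T, which reads the same on both strands. Of the 34 members with an entry, 7 had a box in at least 1 window (20.6%), beside 1.81% of all 27025 genes of the table. The members were picked as SRF-dependent genes, so a share above that of all genes could be foreseen from the choice. The 7 were all of the broadly expressed class (*Srf*, *Fhl2*, *Fhl1*, *Myl9*, *Myl6*, *Cnn2* and *Vcl*), and the 9 muscle-restricted members with an entry had no exact box in this window. The 6 members without an entry were not searched. They were *Csrp2* and the muscle-restricted *Actg2*, *Tagln*, *Myh11*, *Myocd* and *Nexn*. Of these muscle-restricted genes, all but *Nexn* were called higher, so the boxes of the 2 classes cannot be compared fully. A match here is a description of the letters and not a measured binding site. *Srf* is shown because it fell and carries 2 boxes, which start 82 and 62 bases before its own start site. The window is at chr17:46556190-46556269, minus strand, with the boxes in capitals.
*Srf*: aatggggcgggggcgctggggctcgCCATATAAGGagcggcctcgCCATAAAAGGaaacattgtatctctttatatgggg

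The box-bearing members did not share a direction. *Fhl2*, with boxes in 2 alternative promoters at chr1:43196823-43196882 and chr1:43163962-43164017 (minus strand), fell. *Myl9*, with a box 161 bases before its start at chr2:156775278-156775337 (plus strand), rose. *Vcl*, at chr14:20929148-20929205 (plus strand), had the smallest fold change of the set. These windows are printed so that boxes beside genes of 3 different responses can be compared, with the box in capitals.
*Fhl2*, first promoter: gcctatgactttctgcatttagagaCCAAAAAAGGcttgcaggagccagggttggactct
*Fhl2*, second promoter: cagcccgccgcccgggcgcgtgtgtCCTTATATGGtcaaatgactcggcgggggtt
*Myl9*: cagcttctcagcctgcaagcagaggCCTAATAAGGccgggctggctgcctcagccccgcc
*Vcl*: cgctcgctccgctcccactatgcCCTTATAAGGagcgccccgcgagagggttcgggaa

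With 1 mismatch allowed among the central bases, 9 of the 34 members had a box (26.5%), beside 11.3% of all genes. The choice of the set limits this comparison too. The members gained were *Acta2* and *Pdlim3*. The *Acta2* window, at chr19:34255374-34255482 (minus strand), is shown because it is the most abundant muscle-restricted member. Its 2 near-matches, in capitals, start 84 and 34 bases before the start site.
*Acta2*: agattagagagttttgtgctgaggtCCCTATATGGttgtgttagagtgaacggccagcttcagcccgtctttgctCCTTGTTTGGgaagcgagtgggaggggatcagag

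Of the 12 thin filament genes, 4 muscle-restricted ones rose (*Acta2*, *Actg2*, *Tagln* and *Cnn1*), and the other 8, among them the muscle-restricted *Lmod1*, were not called. The share called higher was 33.3%, beside 14.2% of all tested genes. *Acta2* (gene ID 11475), smooth muscle alpha-actin, had 42892, 42490 and 42776 counts in WT against 82800, 81041 and 77859 in *Aff3ir-ORF2*-/- MEFs. The genotypes did not overlap, and the level rose 1.79-fold, from 2449.8 ± 35.4 to 4378 ± 154 CPM (SD, n = 3; log2 fold change 0.84, standard error 0.0489, adjusted p = 1.78e-06). Per kilobase of transcript, *Acta2* was the highest of the 40 genes in WT MEFs, at 1204 CPM per kilobase, before *Tagln* at 1063 and *Tpm1* at 1022. *Actg2* (gene ID 11468), smooth muscle gamma-actin, had 1609, 1505 and 1537 counts in WT against 4644, 4830 and 3823 in *Aff3ir-ORF2*-/- MEFs, a 2.71-fold rise (log2 fold change 1.44, standard error 0.0846, adjusted p = 4.47e-06). *Tagln* (gene ID 21345), whose product transgelin crosslinks actin in smooth muscle, went from 29405, 29524 and 29770 to 52814, 45425 and 49781 counts, a 1.58-fold rise (log2 fold change 0.66, standard error 0.0639, adjusted p = 2.54e-05) that was not past a test against a 1.5-fold change (adjusted p = 0.266). *Cnn1* (gene ID 12797), the basic calponin that restrains actomyosin ATPase in smooth muscle, went from 956, 902 and 919 to 3409, 3017 and 3185 counts, a 3.28-fold rise (log2 fold change 1.71, standard error 0.0616, adjusted p = 1.80e-07).

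The other thin filament genes stayed under 1.5-fold. *Tpm2*, beta-tropomyosin, had 6616, 6379 and 6264 counts in WT against 10539, 9101 and 10468 in *Aff3ir-ORF2*-/- MEFs. Its libraries did not overlap and its adjusted p was 9.18e-05, but at 1.48-fold it missed the fold threshold, which it passed under upper quartile or total count scaling and without WT replicate 1 or *Aff3ir-ORF2*-/- replicate 2. *Tpm1*, alpha-tropomyosin, had 51637, 51490 and 51434 counts in WT against 48557, 39761 and 49200, which came to -0.25 on the log2 scale (standard error 0.083, adjusted p = 0.0308). *Tpm1* lost the adjusted p threshold without any 1 of the WT libraries (adjusted p from 0.0768 to 0.088). *Cald1*, caldesmon, an actin- and myosin-binding regulator, had 41095, 41554 and 41571 against 48351, 45519 and 45908 counts, which after scaling came to 0.09 on the log2 scale (standard error 0.049, adjusted p = 0.133). *Tpm4* had 25760, 25906 and 25891 against 26331, 25543 and 26773 counts (log2 fold change -0.06, standard error 0.0458, adjusted p = 0.306). *Lmod1*, a leiomodin that nucleates actin filaments in smooth muscle, is muscle-restricted and yet had overlapping libraries and lay at -0.10 on the log2 scale (standard error 0.0784, adjusted p = 0.32). *Tagln2* and *Cnn2* were lower past the adjusted p alone, with log2 fold changes of -0.44 and -0.20, and *Cnn3* was at -0.09 (adjusted p = 0.127).

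**Figure D2:**
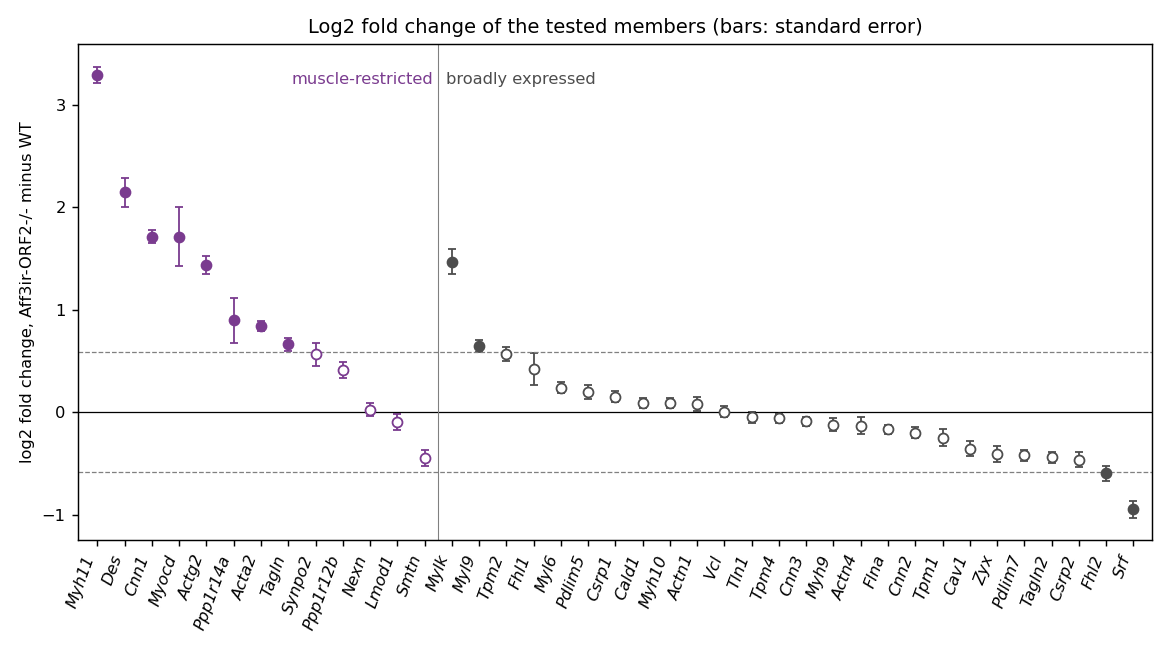
Log2 fold change (Aff3ir-ORF2-/- minus WT) of the 39 tested members with its standard error from edgeR, sorted within the muscle-restricted and the broadly expressed class. Filled points passed both thresholds, open points did not, and dashed lines mark 1.5-fold. Myh11 stands highest at 3.29 and Srf lowest at -0.95.

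Of the myosin genes and their regulators, 4 of 8 rose (50%, beside 14.2% of all tested genes). *Myh11* (gene ID 17880), the smooth muscle myosin heavy chain and the most specific marker of mature smooth muscle in the set, had 123, 132 and 130 counts in WT against 1323, 1445 and 1212 in *Aff3ir-ORF2*-/- MEFs. Its level rose 9.78-fold, from 7.36 ± 0.200 to 72.0 ± 5.77 CPM (SD, n = 3; log2 fold change 3.29, standard error 0.0803, adjusted p = 4.62e-08). This was the largest change of the 39 tested members, although the transcript remained scarce per length, at 11.0 CPM per kilobase in *Aff3ir-ORF2*-/- MEFs against 417 for the nonmuscle heavy chain *Myh9*. *Myl9* (gene ID 98932), the regulatory light chain of smooth and nonmuscle myosin, had 5416, 5801 and 5444 against 9791, 8811 and 8958 counts, a 1.57-fold rise (log2 fold change 0.65, standard error 0.0557, adjusted p = 1.36e-05). *Mylk* (gene ID 107589), the kinase that phosphorylates this light chain and so switches contraction on, had 252, 204 and 276 against 679, 818 and 644 counts, a 2.77-fold rise (log2 fold change 1.47, standard error 0.123, adjusted p = 2.36e-05). *Ppp1r14a* (gene ID 68458), also called CPI-17, inhibits the phosphatase that opposes the kinase. Its counts were few, at 25, 22 and 18 in WT against 45, 38 and 45 in *Aff3ir-ORF2*-/- MEFs, a 1.86-fold rise (log2 fold change 0.90, standard error 0.221, adjusted p = 0.00649). Neither *Myl9* nor *Ppp1r14a* was past a test against a 1.5-fold change (adjusted p = 0.286 and 0.204).

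The remaining myosin genes changed by less than 1.5-fold. *Ppp1r12b*, a myosin-targeting subunit of that phosphatase, was at 802, 789 and 772 counts in WT against 1091, 998 and 1236 in *Aff3ir-ORF2*-/- MEFs, without overlap, which gave 1.33-fold (adjusted p = 0.00165). *Myl6*, the essential light chain of smooth and nonmuscle myosin, had 7493, 7800 and 7552 against 9438, 9039 and 10016 counts, or 1.18-fold (adjusted p = 0.00279). The nonmuscle heavy chains did not pass the test. *Myh9* had 58497, 59014 and 58694 counts in WT against 59455, 52990 and 58752 in *Aff3ir-ORF2*-/- MEFs (log2 fold change -0.12, standard error 0.0593, adjusted p = 0.114). *Myh10* had 7181, 7135 and 7439 against 7758, 8534 and 8188 (log2 fold change 0.09, standard error 0.0454, adjusted p = 0.11).

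The muscle-restricted members of 4 families took a larger share in each *Aff3ir-ORF2*-/- library than in any WT library. Shares were computed on CPM per kilobase of the longest annotated transcript, and they describe proportions only, with no test over the members. *Cnn1* made up 3.82% ± 0.162 of the 3 calponins in WT and 12.6% ± 0.444 in *Aff3ir-ORF2*-/- MEFs (SD, n = 3). *Myh11* made up 0.221% ± 0.00727 of *Myh11*, *Myh9* and *Myh10* in WT and 2.28% ± 0.302 in *Aff3ir-ORF2*-/- MEFs (SD, n = 3). In neither family did the genotypes overlap, and the nonmuscle forms stayed in large excess. *Acta2* and *Actg2* together made up 21.4% ± 0.275 of 6 actins in WT (with *Acta1*, *Actc1*, *Actb* and *Actg1*) and 36.3% ± 2.43 in *Aff3ir-ORF2*-/- MEFs. *Tagln* went from 79.1% ± 0.14 to 89.0% ± 0.389 of the transgelins *Tagln* and *Tagln2*. No such share is given for the tropomyosins, which were all classed as broadly expressed.

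**Figure D3:**
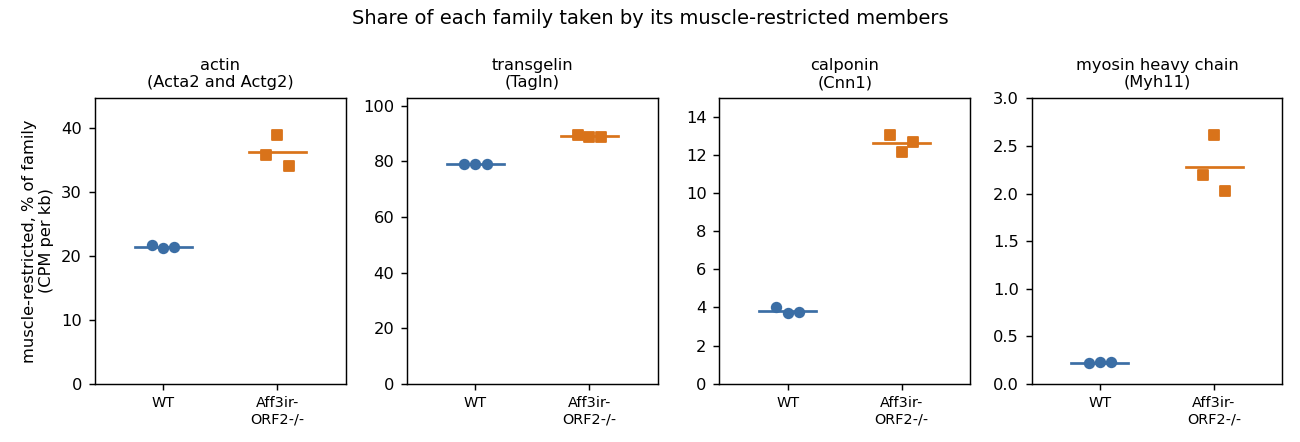
Share of each of 4 gene families taken by its muscle-restricted members (percent of summed CPM per kilobase) in the 3 WT (circles) and 3 Aff3ir-ORF2-/- libraries (squares), with a line at each mean and every axis starting at 0. In the 4 families the Aff3ir-ORF2-/- libraries lie above the WT libraries, from 3.82% to 12.6% on average for calponin and from 0.221% to 2.28% for myosin heavy chain.

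Of 17 tested crosslinkers, adhesion proteins and scaffolds, 1 was called higher and 1 lower (11.8%). The share called was 21.4% over all tested genes and 7.03% over those with at least 50 CPM in both genotypes. *Des*, *Synpo2* and *Csrp2* of this group did not reach 50 CPM, so the 11.8% and the 7.03% cover unlike sets. Of the tested genes of this group that did reach it, only *Fhl2* was called. Past the adjusted p alone, 4 of the 17 were higher and 7 lower. *Des* (gene ID 13346), the muscle intermediate filament protein desmin, had 189, 191 and 189 counts in WT against 889, 1061 and 707 in *Aff3ir-ORF2*-/- MEFs. It rose 4.42-fold, from 10.9 ± 0.0731 to 48.1 ± 9.23 CPM (SD, n = 3; log2 fold change 2.14, standard error 0.145, adjusted p = 1.51e-05). *Fhl2* (gene ID 14200), a LIM-domain scaffold that binds SRF and integrins, had 3146, 3027 and 3093 against 2321, 1927 and 2231 counts. The libraries did not overlap, and the level was 1.51-fold lower (log2 fold change -0.59, standard error 0.0721, adjusted p = 1.28e-04). Since this lies at the fold threshold, *Fhl2* was no longer called without WT replicate 1, without *Aff3ir-ORF2*-/- replicate 2 or under upper quartile or total count scaling, although its adjusted p stayed at 0.00143 or less in those settings.

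The most abundant genes of this group were filamin A, alpha-actinin 1 and alpha-actinin 4, which crosslink actin filaments. *Flna* had 90011, 91254 and 91559 counts in WT against 86451, 85289 and 84792 in *Aff3ir-ORF2*-/- MEFs, without overlap but at only -0.17 on the log2 scale (standard error 0.0462, adjusted p = 0.0119). *Flna* lost the adjusted p threshold without WT replicate 2 (adjusted p = 0.0553) or WT replicate 3 (0.0624). *Actn1* had 23837, 24845 and 24116 against 28997, 24269 and 27933 counts. Its libraries overlapped after scaling, and it lay at 0.08 on the log2 scale (standard error 0.0705, adjusted p = 0.35), but 0.16 without *Aff3ir-ORF2*-/- replicate 2 (adjusted p = 3.23e-04). *Actn4* had 22352, 22587 and 22503 against 23001, 18799 and 23242 counts (log2 fold change -0.13, standard error 0.0827, adjusted p = 0.212). The talin gene *Tln1* and the vinculin gene *Vcl*, which link integrins to actin, were at -0.05 and 0.01 (adjusted p = 0.466 and 0.932), and the sign of both changed with the setting.

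Several scaffolds were lower past the adjusted p alone, all under 1.5-fold. *Zyx*, zyxin, which recruits actin assembly factors to strained stress fibres, was at a log2 fold change of -0.40 (standard error 0.0818), and *Cav1*, the coat protein of caveolae, at -0.36 (0.0715). *Pdlim7* was at -0.42, *Csrp2* at -0.46 and *Smtn* (smoothelin, found in contractile smooth muscle) at -0.45. All of these 5 had *Aff3ir-ORF2*-/- libraries below every WT library. *Smtn* is classed as muscle-restricted, so its direction was opposite to that of *Myh11* and *Cnn1*. In the higher direction, *Pdlim5* was at 0.20 and *Csrp1* at 0.15 past the adjusted p, which *Pdlim5* lost without any of 5 single libraries and *Csrp1* without any of 4. *Synpo2*, an actin-bundling protein of muscle Z-discs, went from 6.81 ± 0.700 to 10.1 ± 0.716 CPM (SD, n = 3), or 1.48-fold (adjusted p = 0.00227).

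The last 3 members were *Nexn*, *Fhl1* and *Pdlim3*. *Nexn*, nexilin, an actin-binding protein of muscle and some nonmuscle cells, was at 0.02 (standard error 0.0628, adjusted p = 0.751) and changed sign without WT replicate 2 or *Aff3ir-ORF2*-/- replicate 2. *Fhl1*, a LIM-domain protein of striated and smooth muscle, had 3604, 3692 and 3789 counts in WT against 5797, 4027 and 5848 in *Aff3ir-ORF2*-/- MEFs. Replicate 2 stood apart from the other two, and the change came to 0.42 on the log2 scale (standard error 0.154, adjusted p = 0.0576) with it and 0.58 (adjusted p = 6.30e-10) without it. With all libraries, *Fhl1* also passed the adjusted p in DESeq2 (0.0015), limma voom (0.00685) and edgeR without robust dispersion (0.0209), and under upper quartile scaling (0.0367), total counts (0.0425) and the replicate block (0.0407), so that it was past the threshold in 7 of 15 alternatives. *Pdlim3*, a muscle Z-disc protein, had 2, 2 and 1 counts in WT against 6, 9 and 10 in *Aff3ir-ORF2*-/- MEFs, a ratio of 4.74 whose 95% interval from counting error alone ran from 1.78 to 15.8. It was not tested in the filtered table, and without the filter it was called higher (log2 fold change 2.15, adjusted p = 0.0101).

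In summed CPM, the 14 muscle-restricted members went from a range of 4640.0 to 4753 in WT to 7689 to 8408 in *Aff3ir-ORF2*-/- libraries. *Acta2* and *Tagln* supplied most of this sum. The 26 broadly expressed members lay between 26357 and 26539 in WT. In the *Aff3ir-ORF2*-/- libraries they came to 26197, 23307 and 25654, in the order of the replicate numbers. The low value was that of replicate 2, which also had the smallest median change of the muscle-restricted members against the WT mean, at 0.55 on the log2 scale (with 0.5 CPM added) against 0.78 and 0.77. Without replicate 2, 8 of the 13 muscle-restricted genes were still called higher (median log2 fold change 0.84), and 3 broadly expressed genes were called higher and 1 lower.

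Genes of the same pathway outside the set were read from the same fit, where 14.2% of all tested genes were called higher and 7.27% lower. Of 8 SRF cofactors and regulators, 1 was called. *Elk4*, a ternary complex factor, fell and lay at -0.73 on the log2 scale (standard error 0.122, adjusted p = 0.00102). The other ternary complex factors, *Elk1* and *Elk3*, were at 0.43 (adjusted p = 3.04e-04) and -0.11 (adjusted p = 0.098), the former higher in every *Aff3ir-ORF2*-/- library. The myocardin-related factors *Mrtfa* and *Mrtfb*, named after their values were seen because they are the partners of SRF at actin genes, were at -0.14 and -0.09 (adjusted p = 0.211 and 0.198). Of 9 SRF targets of the immediate-early kind, 8 fell, with a median log2 fold change of -1.89. The log2 fold change was -3.57 for *Egr2*, -3.47 for *Egr3* and -3.62 for *Fosb*, while *Mcl1*, a survival factor of the BCL2 family, was higher by 0.25 past the adjusted p alone. This list was written with the fall of several of its genes already known.

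Of 14 tested smooth muscle genes outside the set, 10 rose (71.4%, beside 14.2% of all tested genes), with a median log2 fold change of 0.85. They included *Kcnmb1* (1.62), a subunit of the large-conductance potassium channel of smooth muscle, *Itga8* (1.94), an integrin of smooth muscle and myofibroblasts, *Hspb6* (1.28), a small heat shock protein, and *Gucy1a1* (2.75), a subunit of the nitric oxide receptor. *Gucy1a1* had 4, 6 and 4 counts in WT against 33, 41 and 28 in *Aff3ir-ORF2*-/- MEFs. It passed the filter on low counts only through the latter, so once tested it could only come out higher. *Cacna1c*, the pore-forming subunit of the L-type calcium channel, was lower past the adjusted p alone, at -0.55. Without *Aff3ir-ORF2*-/- replicate 2, 10 were called higher and 1 lower. Of 19 other actin and focal adhesion genes, 1 was called, the collagen receptor subunit *Itga1* (log2 fold change 1.91), or 2 without *Aff3ir-ORF2*-/- replicate 2, and the cytoplasmic actins *Actb* and *Actg1* were at -0.28 and -0.19.

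**Figure D4:**
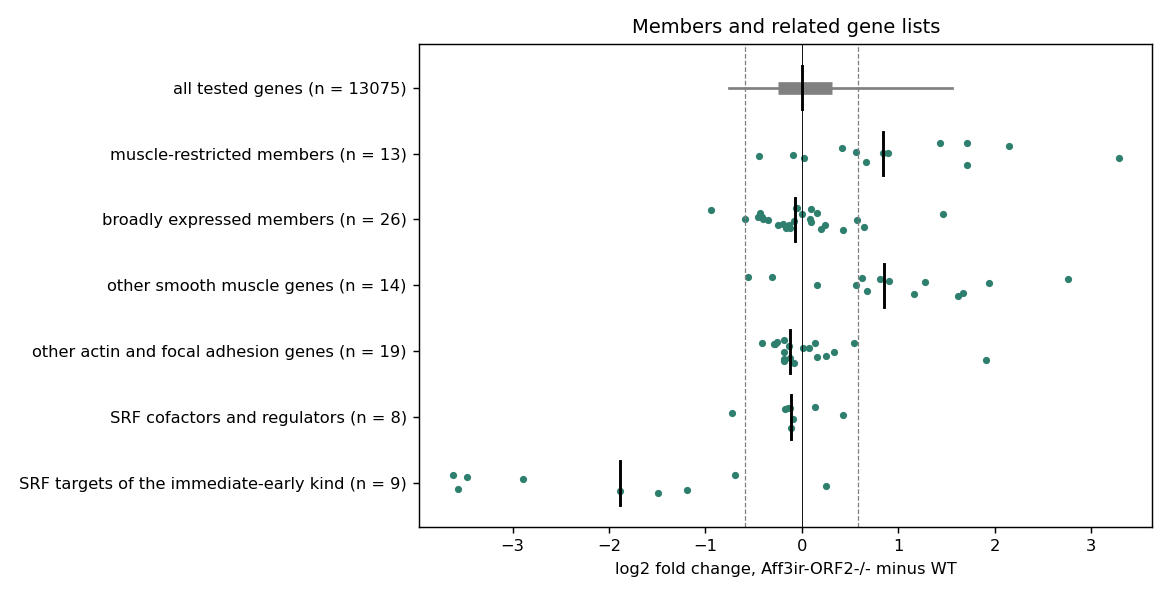
Log2 fold change (Aff3ir-ORF2-/- minus WT) of each tested gene (points) in the 2 classes of members and 4 related lists, with a black line at each median, and of all 13075 tested genes as a grey bar from the 25th to the 75th percentile with a line from the 5th to the 95th. Dashed lines mark 1.5-fold. The muscle-restricted members (median 0.84) and the other smooth muscle genes (0.85) lie to the right, and the immediate-early SRF targets (-1.89) to the left.

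Markers of other cells were read from the same contrast, beside the 14.2% of all tested genes called higher and the 7.27% called lower. The cells held fibroblast markers at high levels in both genotypes (summed CPM of 12 markers 30280.0 to 30338 in WT and 25797 to 32452 in *Aff3ir-ORF2*-/- libraries), of which *Lum* rose and the other 11 were not called, while 2 were called lower without *Aff3ir-ORF2*-/- replicate 2. Of 7 tested pericyte markers, 4 rose (*Anpep*, *Rgs5*, *Pdgfrb* and *Notch3*), and the summed level of the 8 listed went from 509 to 521 CPM in WT to 762 to 800.0 CPM. *Pdgfrb* was abundant in WT MEFs, at 4353, 4320 and 4243 counts, whereas *Rgs5* had 7, 4 and 4 counts and *Kcnj8* 6, 2 and 3. Macrophage markers rose for 12 of 12 genes, from a summed 16.5 to 19.7 CPM in WT to 1246 to 2105 CPM, and 10 of the 12 were called without *Aff3ir-ORF2*-/- replicate 2. *C1qa* and *C1qb* were at 0 in every WT library, and *Spi1*, *Tyrobp*, *Fcer1g*, *Adgre1* and *Ptprc* had at most 11 counts there. These genes, *Rgs5* and the endothelial marker *Erg* passed the filter on low counts only through the *Aff3ir-ORF2*-/- libraries. Once tested, they could only come out higher. Of 4 tested skeletal and cardiac muscle markers, 2 rose, the skeletal actin *Acta1* (log2 fold change 1.77) and *Tnnt2* (0.62), while DESeq2 called only 1. Of the untested ones, the cardiac genes *Myh6* and *Actc1* went from 0, 0 and 0 to 11, 5 and 3 counts and from 0, 1 and 0 to 5, 9 and 6 counts, while *Myh1*, *Myh2*, *Myh7* and *Myf5* had at most 3 counts in any library. *Mylpf*, a fast skeletal light chain, was at -0.80 (adjusted p = 0.0679). Summed over the 13 of these markers in the table, the level was 78.7 to 81.4 CPM in WT and 213 to 332 CPM in *Aff3ir-ORF2*-/- libraries. Nearly all of this sum was *Acta1* alone, with a mean of 76.1 CPM in WT and 259 CPM in *Aff3ir-ORF2*-/- MEFs. Of 4 tested endothelial markers, 2 were called higher (*Erg* and *Kdr*) and 1 lower (*Cdh5*), while DESeq2 called 2 higher and 0 lower. The endothelial markers were scarce, at a summed 7.07 to 7.45 CPM in WT and 10.1 to 15.4 CPM in *Aff3ir-ORF2*-/- libraries, with *Pecam1* at 2 to 5 counts. Epithelial markers summed to at most 4.86 CPM. The part of these cells in the rise of the muscle-restricted genes was not tested.

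Reads shared between similar genes could blur some of these values. Of the 50-base windows of the longest transcript of each member, 14.8% in *Cnn3*, 12.1% in *Tpm4* and 7.59% in *Myl6* also occurred in the longest transcript of another gene. In *Acta2* it was 0.353%, in *Myh11* 0.4%, and in *Actg2*, *Cnn1*, *Des* and *Tagln* 0. In RefSeq, 5 members overlap a protein-coding gene. *Tagln* overlaps *Pcsk7*, which had a log2 fold change of -0.99 from 132 CPM in WT, and *Tpm2* overlaps *Car9*, at 0.763 CPM in WT. Whether the counting used strand is not given in the sources used here.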

How the data were processed

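RNA from 3 WT and 3 *Aff3ir-ORF2*-/- MEF libraries was sequenced in pairs of reads on a DNBSEQ instrument, and the reads were filtered with SOAPnuke 1.5.6. The authors deposited 1 table of estimated counts, a column per library, without normalization. The submitters' processing notes name the build mm8. The aligner, the counting tool and the annotation are not given in the sources used here.

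Estimated counts were rounded, since 10.6% to 11.3% of each column was not whole. In edgeR 4.0.16, genes were kept by filterByExpr at a minimum count of 10 and a total of 15, scaled by TMM and tested with the robust quasi-likelihood fit without covariates, adjusted over all tested genes. A standard error was the log2 fold change over the square root of F. CPM use TMM-scaled totals. Lengths are those of the longest GENCODE M21 transcript of a symbol. Functions were tested on simulated data. Counting error is all that counts alone cover, and 3 counts correspond to 0.172 CPM in the smallest library. R 4.3.3, limma 3.58.1, DESeq2 1.42.0, Python 3.11.15 and matplotlib 3.10.9 were used.

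The members, classes and lists were chosen with earlier results of these data known. Library counts are given for every called member, for *Srf* and *Myocd* and for the 3 most abundant others of each role, and for some further members chosen after their values were seen. Of each other list, up to 4 called genes by adjusted p and up to 2 by CPM are named, and other genes named were chosen after their values were seen. Some listed muscle and endothelial genes were not analysed here, and some results of the other lists are not reported here. Alternatives were other scalings, filters, tools and thresholds, a replicate block, each library left out, other class limits and, added later, a fit without robust dispersion.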

Additional observations from a re-analysis of the deposited data

How the results depend on the processing

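The median log2 fold change of the muscle-restricted members was 0.84 and stayed within 1 SD of the *Aff3ir-ORF2*-/- libraries under every scaling, filter and tool tried. With a wider class of 21 muscle-restricted genes it was 0.61, with 2 of them lower past the adjusted p, and of the 19 broadly expressed genes then left 0 were called higher and 2 were higher past the adjusted p. At a 2-fold change, 6 members were called higher and 0 lower, 5 of the higher ones muscle-restricted and 1 broadly expressed, and over all genes 1096 were higher and 317 lower. A test against a 1.5-fold change called 1074 genes higher and 410 lower over all genes, with 7 members higher, 6 muscle-restricted and 1 broadly expressed, and 1 member, *Srf*, lower. *Tagln*, *Myl9*, *Ppp1r14a* and *Fhl2* lost their calls there and at 2-fold, where *Acta2* and *Srf* lost theirs too. Upper quartile and total count scaling, which moved the median of all genes to 0.04 and 0.03, each left 1 member lower. With each library left out in turn, the members called lower numbered 1 to 2, all broadly expressed. No filter on low counts brought *Pdlim3* in as a called member. *Vcl* turned to -0.00905 without the filter. With a library left out, its log2 fold change ranged from -0.0269 to 0.0428, that of *Nexn* from -0.0197 to 0.0732 and that of *Tln1* from -0.0825 to 0.000211, so that the sign of each turned. The cause of these changes was not tested.

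The replicate numbers of the genotypes are not stated to pair libraries. Same-numbered libraries deviated together with correlations of only 0.0386, 0.0424 and 0.0145, although each was the highest for its library. With the replicate block, 1854 genes were called higher and 954 lower, and 10 members higher and 2 lower, as without it. Among the members, low counts limit *Myocd*, *Ppp1r14a* and *Pdlim3* most.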
